A study of Homo sapiens with 6 samples.

Results

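The 36 genes described here encode enzymes and carriers that make serine, load folate with one-carbon units and build purine, pyrimidine and deoxynucleotides. They were chosen by symbol for what they encode, with earlier results of these data known. They were sorted into 10 genes of serine synthesis and folate metabolism, 13 of purine synthesis and 13 of pyrimidine and deoxynucleotide synthesis. The array annotation named a probe set for 33 of them, out of 17687 genes measured, and SHMT1, UCK2 and NME1 were not analysed here. RNA was measured on 6 arrays from 3 human non-small cell lung cancer lines, with 1 control and 1 treated array per line. PC-9 and HCC827, both EGFR mutant, were given 0.01 µM erlotinib, an inhibitor of the EGFR kinase, for 6 h. H322, EGFR wild type, was given EGF, a ligand of that receptor, for 6 h at a labelled 100 µg/ml. The growth protocol of the lines names TNF alpha, an inflammatory cytokine, in the medium. The labels do not say whether the control arrays come from the same medium. If they do not, TNF alpha and the treatments cannot be told apart. Drug and genotype go together in this design, so erlotinib in wild-type cells and EGF in mutant cells were not measured.

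Dividing cells copy their DNA and make RNA from nucleotides they largely build themselves. Serine made from a glycolytic intermediate donates a carbon to folate, mostly in the mitochondrion, and the carbon leaves as formate to be put back on folate in the cytosol. Purines are then assembled step by step on phosphoribosyl pyrophosphate (PRPP), with ring carbons taken from folate, while the pyrimidine ring is made first and joined to PRPP afterwards. Ribonucleotide reductase turns ribonucleotides into deoxynucleotides, and thymidylate synthase uses folate to make the thymine building block of DNA. Growth factor signalling and the transcription factor MYC are known regulators of many of these genes, and E2F factors of those used in S phase.

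Levels are given as log2(intensity + 1), where a difference of 1 is a 2-fold change, and each level is compared only with that of the same gene on another array. A signal counted as detected where it exceeded the 95th percentile of the array's 612 negative control probe sets, which lay between 6.92 and 7.47 on this scale. Of the 33 measured genes, 30 were detected on all 6 arrays. PSPH was below the controls on both arrays of PC-9 and of H322, DHODH on both arrays of PC-9 and IMPDH1 on both arrays of H322. Of 7 epithelial markers, 7 were detected on all 6 arrays, while 4 of 5 leukocyte markers and 4 of 7 fibroblast and endothelial markers were detected on no array. The exceptions were CD68, detected on 5 arrays and at 13.22 in the HCC827 control, COL1A2 on 5, CDH5 on 2 and VWF on 1. Array medians of 148 to 157 intensity units were close to each other, and differences of a gene are relative to the rest of its array. These are bulk samples, in which fewer cells making an RNA and less of it per cell cannot be told apart.

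Erlotinib was tested with limma on the 4 arrays of the EGFR-mutant lines, each treated array against the control of its own line, so the lines are the replicates. Changes are the mean of 2 lines with limma's moderated standard error (SE, n = 2 lines) and p-values adjusted by Benjamini-Hochberg over all 17687 genes at 0.05. The labels do not say that arrays come from separate cultures, and the p-values measure only the spread between these arrays, with 1 residual degree of freedom and 6.58 borrowed from the other genes. Of the 33 genes, 5 fell with erlotinib, against 0.916% of all genes and 1.57% of the genes detected on all 6 arrays. Those 5 were SLC19A1, SLC25A32, PPAT, CTPS1 and DCTPP1. The genes were chosen with earlier results of these data known, so their shares beside all genes are descriptions and no independent support. In limma 0 of the 33 were called higher, against 0.565% of all genes and 1.01% of those detected on all 6 arrays. At an unadjusted p under 0.05 limma gave 16 of 33 lower and 1 higher, against 6.83% lower and 7.53% higher of all genes, and 10.3% and 12.1% of those detected on all 6 arrays. The 5 calls came down to 0 in limma without the cell line as a block or without a spread that follows the level, and to 2 (PPAT and SLC25A32) with an offset of 16 or a filter on undetected genes.

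**Figure D1:**
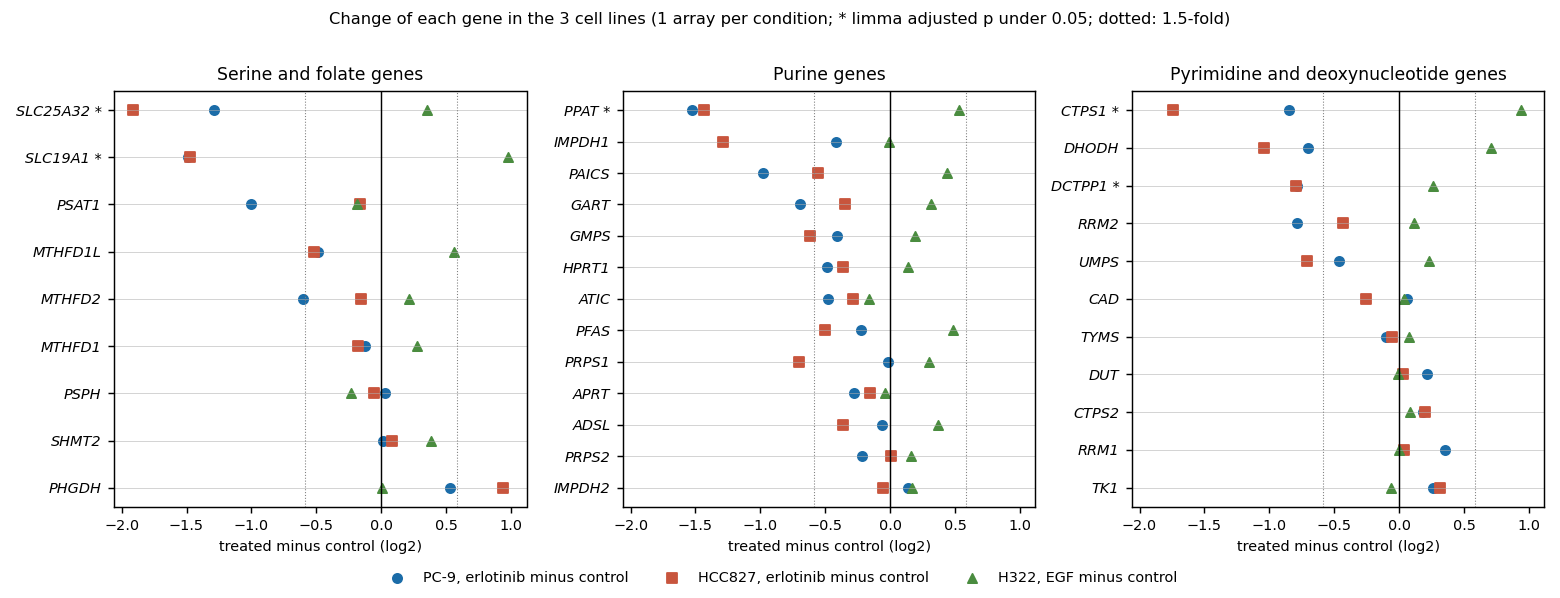
Treated minus control on the log2 scale for each of the 33 genes, by class, with a point for PC-9 and HCC827 (erlotinib) and for H322 (EGF). SLC19A1, SLC25A32, PPAT, CTPS1 and DCTPP1 lie left of 0 in both erlotinib lines and right of 0 with EGF, while PHGDH lies right of 0 in both erlotinib lines.

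The folate carriers had the largest decreases of the serine and folate class. SLC25A32, which carries folate into the mitochondrion, had levels of 12.44 in the PC-9 control, 11.15 in PC-9 with erlotinib, 11.72 in the HCC827 control and 9.81 in HCC827 with erlotinib. Both treated arrays lay below both controls. It fell by 1.60 ± 0.20 on the log2 scale, or 3.03-fold, with a limma adjusted p of 0.0184, and was lower by 2.44-fold (PC-9) and 3.77-fold (HCC827). SLC19A1, the reduced folate carrier of the plasma membrane, had levels of 9.16 and 7.67 in PC-9, then 8.92 and 7.44 in HCC827, control first. The treated signals were still detected but close to the negative controls. SLC19A1 fell by 1.48 ± 0.24, or 2.79-fold (limma adjusted p = 0.0367), with 2.80-fold (PC-9) and 2.78-fold (HCC827).

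The enzymes of folate metabolism showed smaller differences, none of which passed limma. MTHFD1L, the mitochondrial enzyme that releases formate, had a mean difference of -0.50 ± 0.17 (limma adjusted p = 0.234), lower by 1.40-fold (PC-9) and 1.43-fold (HCC827). MTHFD2, the mitochondrial dehydrogenase of the same route, was lower by 1.52-fold (PC-9) and 1.11-fold (HCC827). MTHFD1, its cytosolic counterpart, had -0.15 ± 0.13 and SHMT2, the mitochondrial enzyme that takes the carbon from serine, 0.05 ± 0.11. SHMT2 had levels of 14.35 and 14.36 in PC-9, then 15.01 and 15.09 in HCC827, control first, so the treated arrays hardly differed from their controls. Its 95% interval ran from -0.21 to 0.30.

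The enzymes of serine synthesis did not move in 1 direction. PHGDH, which catalyses the first step, had levels of 12.75 and 13.28 in PC-9, then 9.79 and 10.73 in HCC827, control first. The treated array was the higher in each line, while the lines themselves lay further apart than control and treated. Its mean difference of 0.73 ± 0.18 (1.66-fold) missed the threshold, with a limma adjusted p of 0.103. PSAT1, the next enzyme, had 13.45 and 12.45 in PC-9, then 13.89 and 13.73 in HCC827. It was thus lower by 2.01-fold (PC-9) and 1.12-fold (HCC827), and its mean of -0.59 ± 0.20 did not pass (limma adjusted p = 0.234). PSPH, the phosphatase of the last step, had undetected signals of 7.21 and 7.25 in PC-9 and detected ones of 8.47 and 8.42 in HCC827, a difference of -0.05.

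Of the 13 purine genes 1 fell, the enzyme that commits PRPP to the pathway. PPAT had levels of 9.49 and 7.96 in PC-9, then 11.35 and 9.91 in HCC827, control first. HCC827 lay above PC-9 throughout, and the decrease was of like size in each. PPAT fell by 1.48 ± 0.20, or 2.79-fold (limma adjusted p = 0.0227), with 2.89-fold (PC-9) and 2.70-fold (HCC827). PAICS, which overlaps PPAT on the other strand and encodes a bifunctional enzyme of the middle steps, had 12.69 and 11.71 in PC-9, then 14.48 and 13.92 in HCC827. It was lower by 1.97-fold (PC-9) and 1.47-fold (HCC827), and the mean of -0.77 ± 0.15 just missed the threshold with a limma adjusted p of 0.0612.

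The other enzymes of the route had mean differences of -0.52 ± 0.18 for GART, -0.36 ± 0.18 for PFAS, -0.21 ± 0.20 for ADSL and -0.38 ± 0.14 for ATIC, which closes the purine ring. All 4 were lower on the treated array of each line and none passed limma, with adjusted p between 0.239 and 0.715. ATIC had 13.26 and 12.78 in PC-9, then 13.29 and 13.00 in HCC827, with both treated arrays under both controls. ADSL had 10.56 and 10.50 in PC-9, then 9.93 and 9.56 in HCC827, and here the lines differed more than the arrays within them. At the branch to guanine nucleotides, IMPDH1 had 9.67 and 9.26 in PC-9, then 9.54 and 8.25 in HCC827. It was lower by 1.33-fold (PC-9) and 2.44-fold (HCC827), with a mean of -0.85 ± 0.27 (limma adjusted p = 0.194). IMPDH2, the other gene for the same reaction, had 10.33 and 10.47 in PC-9, then 12.17 and 12.11 in HCC827, with a mean of 0.04 ± 0.17. GMPS, which completes GMP, was lower by 1.33-fold (PC-9) and 1.53-fold (HCC827), with a limma adjusted p of 0.170.

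PRPP itself is made by the PRPS enzymes. PRPS1 had levels of 11.00 and 10.99 in PC-9, then 12.49 and 11.79 in HCC827, which is level in one line and 1.63-fold lower in the other. PRPS2 had 13.07 and 12.85 in PC-9, then 11.79 and 11.80 in HCC827. The salvage enzymes HPRT1 and APRT, which rebuild nucleotides from free bases, had mean differences of -0.43 and -0.22. Neither passed (limma adjusted p = 0.409 and 0.689).

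In pyrimidine synthesis the gene called was at the end of the route. CTPS1, which turns UTP into CTP, had levels of 12.18 and 11.33 in PC-9, then 12.33 and 10.59 in HCC827, control first. The controls were close together and the treated arrays apart, with a 1.80-fold difference in PC-9 and a 3.35-fold one in HCC827. CTPS1 fell by 1.30 ± 0.23, or 2.46-fold (limma adjusted p = 0.0451). CTPS2, the second CTP synthase, had 10.85 and 11.04 in PC-9, then 11.29 and 11.48 in HCC827, each treated array the higher, and a mean of 0.19 ± 0.17 that did not pass (limma adjusted p = 0.694). The 95% intervals of CTPS1, -1.83 to -0.77, and of CTPS2, -0.20 to 0.58, did not overlap. The difference between these genes was not tested.

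The genes for building the ring were lower or nearly level. CAD, the enzyme of the opening steps, had 0.06 in PC-9 and -0.26 in HCC827. DHODH, the mitochondrial step, was 2.06-fold lower in HCC827, from 9.23 to 8.18. In PC-9 its signals of 6.69 and 5.99 both lay under the negative controls and give no fold. UMPS, which attaches PRPP and makes UMP, was lower by 1.38-fold (PC-9) and 1.64-fold (HCC827), with a limma adjusted p of 0.218.

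Among the deoxynucleotide genes the one that fell was DCTPP1, a pyrophosphatase that clears dCTP and its modified forms. Its levels were 13.41 and 12.62 in PC-9, then 12.93 and 12.14 in HCC827, control first. The decreases in the lines were nearly equal, 1.73-fold and 1.74-fold, and the mean was -0.79 ± 0.14 (limma adjusted p = 0.0451). RRM2, the ribonucleotide reductase subunit made in S phase, had 10.45 and 9.66 in PC-9, then 13.75 and 13.31 in HCC827. It was lower on each treated array but its mean of -0.61 ± 0.17 did not pass (limma adjusted p = 0.148).

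The remaining genes of DNA precursor supply had small differences. RRM1, the partner subunit, had levels of 11.61 and 11.97 in PC-9, then 13.56 and 13.60 in HCC827, and a mean difference of 0.20 ± 0.15. TK1, the thymidine kinase, had 11.83 and 12.09 in PC-9, then 13.57 and 13.88 in HCC827, and a mean of 0.29 ± 0.14. Both were somewhat higher on each treated array and neither passed (limma adjusted p = 0.635 and 0.408). TYMS, thymidylate synthase, had -0.07 ± 0.17 with a 95% interval from -0.47 to 0.32, and DUT, which removes dUTP, 0.12 ± 0.17. These intervals leave room for small changes either way.

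**Figure D2:**
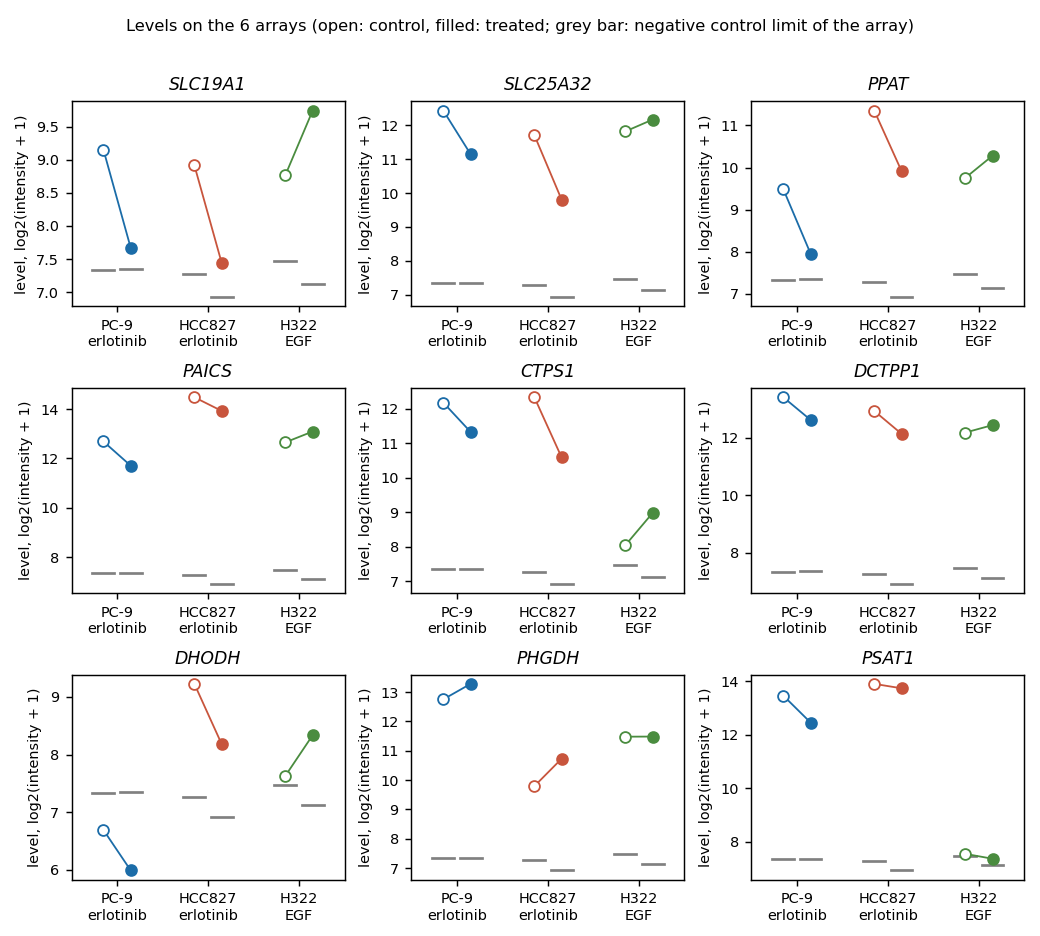
Levels as log2(intensity + 1) of 9 genes on the 6 arrays, control (open) and treated (filled) joined within each line, with a grey bar at the negative control limit of each array; the axes do not start at 0. SLC19A1, SLC25A32, PPAT, PAICS, CTPS1 and DCTPP1 are lower on the treated array of both erlotinib lines and higher with EGF, DHODH in PC-9 lies under the limit, and PSAT1 in H322 lies close to it.

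By class, 2 of 9 serine and folate genes, 1 of 13 purine genes and 2 of 11 pyrimidine and deoxynucleotide genes fell. The share called lower was 0.916% of all genes and 1.57% of those detected on all 6 arrays. The median change over both lines was -0.38 for serine and folate genes, -0.38 for purine genes and -0.10 for pyrimidine and deoxynucleotide genes. It was -0.00 over all genes and 0.03 over those detected on all 6 arrays. The class medians differed by line. For serine and folate genes it was -0.49 in PC-9 and -0.17 in HCC827, for purine genes -0.41 and -0.36, and for pyrimidine and deoxynucleotide genes -0.10 and -0.26. The genes detected on all 6 arrays had medians of 0.004 in PC-9 and 0.06 in HCC827.

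Both treated signals were lower than their controls for 23 of the 33 genes and both were higher for 6. Of the 30 genes detected everywhere, 21 were lower in both lines, where 30.7% of the 7405 genes detected on all 6 arrays were, and 6 were higher in both, where 37.4% were. In PC-9, 10 of 31 genes that could be judged were at least 1.5-fold lower, against 9.22% of all genes, and 0 were as much higher, against 7.84%. In HCC827, 10 of 33 were at least 1.5-fold lower, against 9.83%, and 1, PHGDH, was as much higher, against 14.8%. The genes past this fold in both lines were the 5 that passed limma, where 4.09% of all genes judged were as much lower in both. None was as much higher in both, against 3.97%. PSAT1, MTHFD2, GART, PAICS and RRM2 passed it in PC-9 and not in HCC827. IMPDH1, GMPS, PRPS1 and UMPS passed it in HCC827 and not in PC-9, and DHODH passed it in HCC827 and could not be judged in PC-9. These single-line values have no replicate, and the difference between lines was not tested.

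Other genes of the same pathways were taken from longer lists. Of all genes 0.916% were called lower by limma, and of those detected on all 6 arrays 1.57%. At an unadjusted p under 0.05 limma gave 6.83% of all genes lower and 7.53% higher. Of the genes detected on all 6 arrays it gave 10.3% lower and 12.1% higher. In the folate and methionine cycles the median change of 16 measured genes was -0.21, with 7 lower in both lines and 2 higher in both. Of these 16 limma gave 4 lower and 1 higher at an unadjusted p under 0.05. By the adjusted p 1 of the 16 fell, 0 were called higher and 15 did not pass limma. That gene was MAT2A, which makes the methyl donor S-adenosylmethionine, with levels of 14.29 and 12.82 in PC-9, then 14.69 and 12.79 in HCC827. MAT2A fell by 1.69 ± 0.15, with a limma adjusted p of 0.00852, and by 2.76-fold (PC-9) and 3.74-fold (HCC827). MAT2B, chosen after its values were seen because it encodes the regulatory subunit of that enzyme, had 11.53 and 12.25 in PC-9, then 10.64 and 11.69 in HCC827. Its mean of 0.88 ± 0.17 was of opposite sign and did not pass (limma adjusted p = 0.0585). SFXN1 and MTRR, also added after their values were seen, were lower on each treated array. Their means of -0.84 ± 0.17 and -0.68 ± 0.18 did not pass (limma adjusted p = 0.0655 and 0.141). With EGF they were higher, by 0.54 and 0.46. The other genes of this list detected on all 6 arrays ran from lower to higher with erlotinib, and none passed limma. Their means were -0.39 (MTFMT), -0.36 (GCSH), -0.08 (FPGS), -0.003 (MTR), 0.07 (AHCY) and 0.36 (GGH).

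In the wider purine list 2 of 17 measured genes fell and 0 were called higher by limma. The list median was -0.06, with 6 genes lower in both lines and 5 higher in both. With EGF 12 of the 17 had a lower signal and 5 a higher one, with a median of -0.05. At an unadjusted p under 0.05 limma gave 3 lower and 0 higher. The shares at that p were 6.83% and 7.53% of all genes, and 10.3% and 12.1% of those detected on all 6 arrays. PNP, the purine nucleoside phosphorylase of salvage, fell by 1.47 ± 0.15 (limma adjusted p = 0.0116), by 2.87-fold (PC-9) and 2.66-fold (HCC827). AK4, a mitochondrial adenylate kinase, fell by 1.26 ± 0.18 (limma adjusted p = 0.0250), 2.43-fold and 2.36-fold. Of 16 further pyrimidine genes 0 passed limma, with 3 lower and 0 higher at an unadjusted p under 0.05 and a median of -0.01. The lowest was UPP1, a uridine phosphorylase, at -1.14 ± 0.24 (limma adjusted p = 0.0725), 2.04-fold lower in HCC827 and lower by at least 1.59-fold in PC-9, to an undetected signal. UPP1 was added after its values were seen. The nucleoside transporters SLC29A2 and SLC29A1 were the lowest of those detected on the 4 arrays, at -0.73 and -0.55, and CDA, cytidine deaminase, and NME6 the highest, at 0.43 and 0.38. The pentose phosphate pathway, which supplies ribose for PRPP, had a median of 0.25 over 6 measured genes, with -0.30 for RPE, 0.18 for TKT, 0.33 for PGLS and 0.37 for PGD. In limma 0 of them passed, and 0 had an unadjusted p under 0.05. The lowest of the 6 was RPIA, added after its values were seen, at -0.58 ± 0.25 (limma adjusted p = 0.359). It was 1.65-fold lower in HCC827 and lower by at least 1.14-fold in PC-9, to an undetected signal.

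Genes of S phase and of growth signalling were set beside these. Over 20 S phase genes the median change was 0.02, with 7 lower in both lines and 8 higher in both. Of all genes detected on all 6 arrays 30.7% were lower in both lines and 37.4% higher in both. At an unadjusted p under 0.05 in limma 10.3% of those genes were lower and 12.1% higher. Limma called 0 of the 20 S phase genes, with 2 lower and 3 higher at that unadjusted p. The lowest was CCNE1 (-1.14 ± 0.25, limma adjusted p = 0.0767), 2.12-fold lower in HCC827 and lower by at least 1.93-fold in PC-9, to an undetected signal. The highest was CDT1 (0.83 ± 0.25, limma adjusted p = 0.183), undetected in the PC-9 control. Both were added after their values were seen, since the rule for naming kept to genes detected on the 4 arrays. Of those CDC6 (-0.68 ± 0.19) and GINS1 (-0.36 ± 0.21) were lowest and MCM5 (0.52 ± 0.20) and CHAF1A (0.42 ± 0.26) highest. MYC had levels of 12.73 and 10.42 in PC-9, then 13.90 and 13.33 in HCC827, a 4.95-fold difference in 1 line and a 1.48-fold one in the other, and did not pass (limma adjusted p = 0.104). ATF4, a known activator of serine synthesis genes, had 0.07 ± 0.14. E2F1 was under the negative controls in PC-9 and had 8.49 and 9.29 in HCC827, 1.74-fold higher with erlotinib. Of 10 genes that ERK signalling is known to switch on, 4 fell, with a list median of -2.14. Of all genes 0.916% fell, and 1.57% of those detected on all 6 arrays. Among the ERK genes FOSL1 had 12.87 and 7.78 in PC-9, then 13.65 and 8.47 in HCC827, and DUSP6 10.61 and an undetected 5.50, then 13.40 and 10.09. The part of any of these in the changes of the 33 genes was not tested.

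EGF in H322 was measured on 1 array against 1 control, so its differences have no error and no test. Of the 33 genes, 25 had a higher signal with EGF. Of the 30 detected on all 6 arrays 24 did, against 51.4% of all such genes. The median difference was 0.19, against 0.01 over all genes, with 0.28 for serine and folate genes, 0.19 for purine genes and 0.09 for pyrimidine and deoxynucleotide genes. At least 1.5-fold higher were 3 of 31 genes, against 2.23% of all genes, and 0 were as much lower, against 1.64%.

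Those 3 genes were SLC19A1, from 8.77 to 9.74 (1.97-fold), CTPS1, from 8.04 to 8.98 (1.92-fold), and DHODH, from 7.63 to 8.34 (1.63-fold). The DHODH and CTPS1 signals lay near the negative controls of H322. Just under that fold were MTHFD1L, 1.48-fold higher, and PPAT, from 9.75 to 10.28 (1.44-fold), followed by PFAS at 1.40-fold and PAICS at 1.36-fold. SLC25A32 went from 11.82 to 12.17 (1.27-fold) and DCTPP1 from 12.18 to 12.44 (1.20-fold). PHGDH, at 11.48 on both arrays, had a difference of 0.00, and TYMS had 0.07. The largest negative differences were those of PSPH, undetected at 6.42 and 6.18, PSAT1, from 7.54 to 7.36 (1.14-fold), and ATIC, from 12.67 to 12.51 (1.12-fold). The PSAT1 signals were close to the negative controls. None of these values exceeded a 2-fold difference.

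Erlotinib and EGF used different cells and share no control array. Lower in both erlotinib lines and higher with EGF were 19 of the 33 genes, or 5 of 9 serine and folate, 8 of 13 purine and 6 of 11 pyrimidine and deoxynucleotide genes. Of the 30 genes detected on all arrays 18 showed it, against 21.3% of all such genes. The 5 genes called with erlotinib were among the 19, with EGF differences of 0.97 for SLC19A1, 0.94 for CTPS1, 0.53 for PPAT, 0.35 for SLC25A32 and 0.26 for DCTPP1. Of the 6 genes higher in both erlotinib lines, 5 (PHGDH, CTPS2, RRM1, TK1 and DUT) had EGF differences from -0.06 to 0.09, and SHMT2 had 0.39. S phase genes showed another combination: 19 of 20 had a higher signal with EGF, with a median of 0.28, beside the erlotinib median of 0.02.

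**Figure D3:**
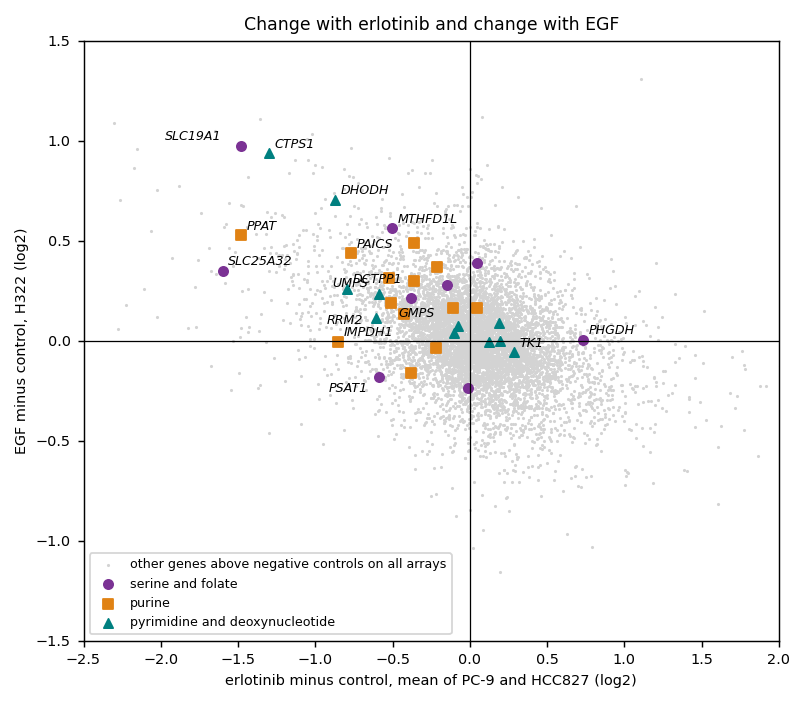
Each point is a gene detected on all 6 arrays (7375 grey points, of which 6 lie outside the axes) or one of the 33 genes, with the mean erlotinib difference of PC-9 and HCC827 on the x axis and the EGF difference of H322 on the y axis, both in log2. SLC19A1, CTPS1, DHODH, PPAT and SLC25A32 lie at the upper left, and PHGDH lies at the right near 0 on the y axis.

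The control levels of many of the genes differed between the lines, which is a description of 1 control array per line. The median range of the 3 controls was 1.79 on the log2 scale, against 0.87 over all genes. Among genes detected on all 6 arrays it was 1.61 for the listed genes, against 1.14 for all such genes. A range over 3 arrays is not like for like with the difference between a treated array and its control. PSAT1 had control levels of 13.45 in PC-9, 13.89 in HCC827 and 7.54 in H322, which put H322 60.3-fold below PC-9 and 81.8-fold below HCC827. CTPS1 was 17.6-fold lower in H322 than in PC-9 and 19.6-fold lower than in HCC827, while CTPS2 had levels of 10.85, 11.29 and 10.73 in the same order. IMPDH1, not detected in H322 at 6.45 and 6.44, was at least 4.61-fold lower there than in PC-9.

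PHGDH had another order, with PC-9 7.79-fold above HCC827 and H322 between them. RRM2, at 12.59 in the H322 control and 12.70 with EGF, was 9.85-fold higher in HCC827 than in PC-9, and H322 lay 4.41-fold above PC-9. PRPS1, at 9.51 and 9.81 in H322, was 2.82-fold higher in HCC827 than in PC-9, and H322 was 2.80-fold below PC-9. DHODH in HCC827 was at least 3.70-fold above PC-9, where it was not detected.

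Both HCC827 arrays lay above both PC-9 arrays for 21 of the 33 genes. Among the genes detected on all arrays this held for 19 of 30, or 63.3%, against 36.6% of all such genes. It held for 19 of the 20 S phase genes too, and the part of that difference in the 33 genes was not tested. PC-9 lay above HCC827 on both arrays for PHGDH, ADSL and PRPS2, 3 of the 30 genes detected everywhere, against 38.4% of all such genes. Both H322 arrays lay below the 4 others for 10 genes, among them PSAT1, SHMT2, MTHFD1L, ATIC, CTPS1 and DUT. Among the genes detected on all arrays this held for 8 of 30, or 26.7%, near the 20.4% of all such genes. The H322 arrays lay above the 4 others for GMPS, CAD, TYMS and RRM1, or 4 of 30, against 27.3%.

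**Figure D4:**
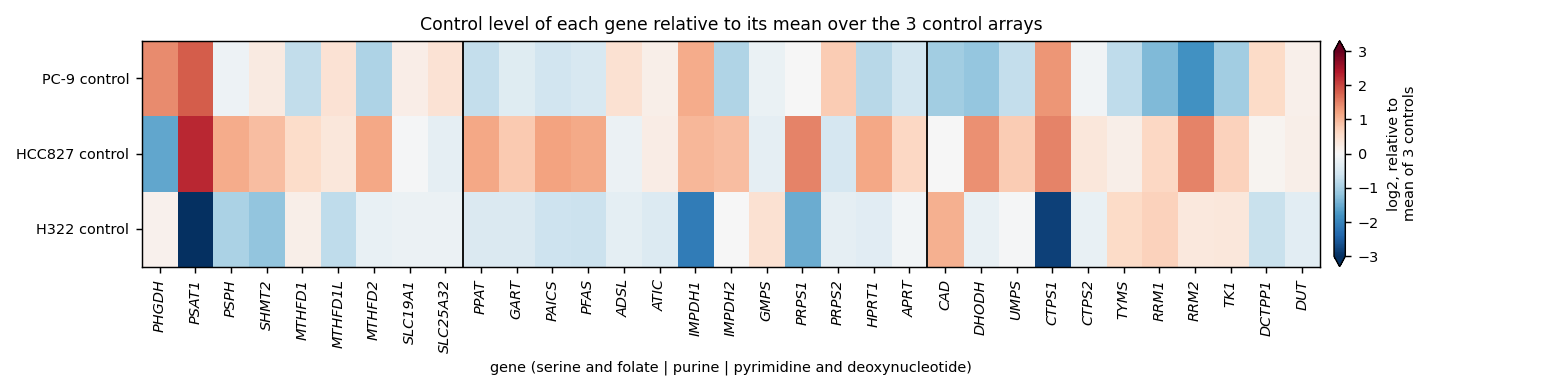
Levels of the 33 genes (x axis, by class) on the 3 control arrays (y axis), as log2 differences from the mean of the 3 controls for that gene (colour, cut at 3 log2 units either way); undetected signals are drawn as measured. PSAT1, CTPS1 and IMPDH1 are low in H322, RRM2 is low in PC-9, and PHGDH is high in PC-9 and low in HCC827.

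The region around the start of each gene was searched for short motifs. The part of any motif in the changes of these genes was not tested. Windows of 300 bases, from 250 before to 50 after an annotated start, came from RefSeq on GRCh38.p14 and were given for 31 of the 36 genes, 28 of them measured. The E-box CACGTG, which MYC and related factors are known to bind and which reads the same on both strands, was in a window of 9 of the 31 genes (29.0%), against 8.77% of 27305 genes in the RefSeq table. Among genes detected on all 6 arrays it was in 7 of 26 (26.9%), against 13.2% of 6272. These matches are given because 3 of the 4 called genes with a window hold one, and SLC25A32 was not searched. Capitals mark the motif and each sequence is printed on the strand of its gene, 5′ to 3′.
PPAT, chr4:56435780-56435809, minus strand: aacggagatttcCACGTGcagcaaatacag
SLC19A1, chr21:45541797-45541826, minus strand: ttcgcgcccaggCACGTGttgcttcgggac
DCTPP1, chr16:30429792-30429821, minus strand: ggagggttcctcCACGTGgtcgggaagcgg
MTHFD1L, chr6:150866320-150866349, plus strand: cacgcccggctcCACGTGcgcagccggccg
ATIC, chr2:215312001-215312030, plus strand: gggccggcgggcCACGTGataagcccggaa
DHODH, chr16:72008573-72008602, plus strand: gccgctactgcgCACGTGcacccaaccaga

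The sites do not sit alike. The motif begins 182 bases before the start of PPAT and 159 before that of DHODH. It begins 46 before that of ATIC and 9 before that of DCTPP1. For MTHFD1L it begins 1 base before the first of several annotated starts whose windows hold it. In SLC19A1 it is at base 33 after one of several annotated starts, which lies inside the span of the gene. The DCTPP1, MTHFD1L and PAICS starts with the motif also lie inside the spans of their genes, that of PAICS by 25245 bases. PAICS, MTHFD1 and NME1 are the other genes with a match, and the windows of CTPS1 hold none. MTHFD1, whose site is not printed, had a mean erlotinib difference of -0.15. ATIC has a second motif, at base 30 after its start.

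PPAT and PAICS lie on opposite strands of chromosome 4, and the PPAT motif is also at base 41 after one annotated start of PAICS. The annotated span of PAICS begins further upstream and overlaps PPAT. The start of PPAT and this start of PAICS, at 56435615 on the minus strand and 56435752 on the plus strand, leave 136 bases between them, 75.0% of which are G or C. The stretch is shown because both genes were lower with erlotinib in each line and higher with EGF, PPAT with a call and PAICS without one.
PPAT to PAICS, chr4:56435616-56435751, plus strand: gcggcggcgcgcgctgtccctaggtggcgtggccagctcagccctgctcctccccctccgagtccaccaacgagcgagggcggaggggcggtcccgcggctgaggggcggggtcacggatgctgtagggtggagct

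The 7 detected genes with the E-box were SLC19A1, PPAT, PAICS, DCTPP1, MTHFD1L, MTHFD1 and ATIC, and PPAT and PAICS share 1 site. Over all detected genes with a window the erlotinib medians were 0.01 for 831 genes with the E-box and 0.04 for those without, and 2.17% and 1.36% were called lower.

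The letters of the E2F motif, searched as TTTCGCGC, TTTGGCGC, TTTCCCGC and TTTGCCGC on both strands, were in a window of 5 of the 31 genes (16.1%), against 3.99% of all genes. The 5 were TYMS, DUT, GART, PRPS2 and SLC19A1. Their mean erlotinib differences were -0.07, 0.12, -0.52, -0.11 and -1.48 in that order, and only SLC19A1 was called. The share among detected genes was not computed for this motif. The TYMS site is shown as that of a gene with a difference near 0 under both treatments, with the motif, read on the opposite strand, in capitals.
TYMS, chr18:657603-657632, plus strand: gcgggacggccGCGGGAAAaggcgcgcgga

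The motif TGATGNAA, known to be bound by ATF4 and its partners, was in a window of 1 of the 31 genes (3.23%), against 4.46% of all genes. That gene belongs to the serine and folate class. These matches describe letters in windows of fixed length, and binding was not measured.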

How the data were processed

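The deposited values are linear probe set intensities. Per the submitters' processing notes, Affymetrix Expression Console produced them. The version, background correction and normalization were not given in the sources used here. A shift common to most genes would not show after scaling between arrays. Per the labels, total RNA was extracted with Trizol and labelled as biotinylated cRNA by the Affymetrix protocol.

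From the 24351 probe sets log2(value + 1) was computed here. The platform annotation gave 17709 probe sets 1 symbol and 6642 none; the brightest probe set was kept for 20 genes with several. An offset understates changes of dim genes. Folds with 1 array under the negative controls are bounds ("at least"), with none where both are. The fits used limma 3.58.1 in R 4.3.3 (lmFit, eBayes with a trend, two-sided). Arrays are paired by cell line. Control and treated arrays correlated across genes at 0.991 in PC-9 and 0.988 in HCC827, against 0.907 between these controls. Scripts were tested on simulated data.

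Named were all listed genes, and of other lists those past the threshold, otherwise the 2 highest and 2 lowest detected. Members and lists were chosen with earlier results of these data known. The number of arrays limits the precision. Promoter windows and starts are RefSeq's, GRCh38.p14.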

Additional observations from a re-analysis of the deposited data

Results flagged for a closer look

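In 4 genes the treated array lay above its control in one erlotinib line and below it in the other. CAD had 0.06 in PC-9 and -0.26 in HCC827, a difference of -0.318 (HCC827 minus PC-9). IMPDH2 had 0.14 and -0.05, a difference of -0.191. PRPS2 had -0.22 and 0.00, a difference of 0.219. PSPH had 0.03 and -0.05, a difference of -0.0847, and was not detected in PC-9. With 1 array per condition in each line, these differences were not tested.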

How the results depend on the processing

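Each choice was changed alone in 9 other fits of the erlotinib comparison. The count of genes called lower, 5 as reported, was 2 with an offset of 16, 2 when genes detected on none of the 4 arrays were left out, and 10 when the negative control limit replaced dimmer signals. It was 0 with no trend of the spread on the level, and 0 with no replicate block (the pairing by line), a fit with 2 of the 33 genes at an unadjusted p under 0.05. It stayed between 4 and 6 with centred arrays, quantile normalization, all 6 arrays and the mean of probe sets. The count called higher, 0 as reported, was 1 (PHGDH) with quantile normalization and 1 (PHGDH) when the limit replaced dimmer signals. SLC25A32 and PPAT were called in 7 of the 9 fits, SLC19A1 and DCTPP1 in 5 and CTPS1 in 4. PAICS was called in 3. None of the reported differences changed sign when called.

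With 1 line left out, the median change ran from -0.41 to -0.35 over all 33 genes, -0.49 to -0.17 for serine and folate, -0.41 to -0.36 for purine, and -0.26 to -0.10 for pyrimidine and deoxynucleotide genes. At 2-fold in place of 1.5-fold, 4 genes were lower in PC-9 and 6 in HCC827, with 0 higher in HCC827 and 0 higher with EGF. With 1 array per line and treatment, signals near the negative controls (SLC19A1 with erlotinib, PSAT1 and CTPS1 in H322, DHODH) carry the least certain differences.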
